A study of Mus musculus with 12 samples.

Results

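Of 12 RNA-seq libraries of the mouse ventral hippocampus, 4 carried a strong choroid plexus signal, and these are described here against the other 8. The 4 were chosen by a measured value, a deposited level of Ttr above 5.5 on the natural log scale. Ttr encodes transthyretin, the thyroid hormone carrier that choroid plexus epithelium makes in large amounts. The comparison ran over autosomal genes other than Ttr, with genotype as a covariate.

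Each library came from the RNA of 1 mouse. The tissue was the ventral portion of the right hippocampus of C57BL/6J mice aged 12 to 16 weeks. Of the mice with Angelman syndrome (AS) 3 were female and 3 male, and so were 3 and 3 of the wild-type (WT) controls. The labels do not state which mutation the AS mice carried, and no treatment is named for any group. The design text counts mice, so the libraries are separate animals.

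The choroid plexus is a folded sheet of epithelium on a vascular stroma that hangs into the brain ventricles and secretes cerebrospinal fluid. Its cells are joined by tight junctions and carry ion channels, carbonate and chloride transporters and water channels that move salt and water, and they secrete carrier proteins such as transthyretin. The plexus of the lateral ventricle's temporal horn lies beside the ventral hippocampus, so a dissected piece can include it.

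The libraries above the threshold were WT female replicate 2 at 8.12, AS female replicate 2 at 8.08, WT female replicate 1 at 7.58 and AS male replicate 2 at 6.41 (deposited Ttr, natural log). Values of the 4 libraries are given in this order below. The other 8 ran from 1.61 in AS male replicate 3 to 4.50 in WT female replicate 3. The members nearest the threshold were therefore AS male replicate 2 above it at 6.41 and WT female replicate 3 below it at 4.50. In back-transformed abundance Ttr took 0.583%, 0.549%, 0.348% and 0.105% of the whole table in the 4. In the other 8 it took between 0.000716% and 0.0154%. These shares assume the natural log. If the undocumented base were 2, they would be 0.224%, 0.218%, 0.155% and 0.0685%, against 0.00166% to 0.0174%. Ttr ranked 14th among all genes in both WT female replicate 2 and AS female replicate 2, and between 1015th and 10960th in the 8 others. No library was without Ttr.

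WT females supplied 2 of the 4 libraries, AS females 1, AS males 1 and WT males 0. By genotype the share was 2 of 6 AS against 2 of 6 WT (Fisher's exact test, two-sided, p = 1.0). By sex it was 3 of 6 labelled females against 1 of 6 males (Fisher's exact test, two-sided, p = 0.545). One library goes against its sex label. WT female replicate 1 had an Xist level of 0.35 on the log2(abundance + 1) scale, where males lay between 0.17 and 0.52 and the other 5 females between 6.00 and 6.44. Xist is the RNA that coats the inactive X chromosome. WT female replicate 1 is one of the 4, so counts are also given without it. By sex the share was then 2 of 5 labelled females against 1 of 6 males (Fisher's exact test, two-sided, p = 0.545).

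All levels below are log2(abundance + 1), from the authors' RSEM abundances, and a difference is the level in the 4 libraries minus that in the other 8, adjusted for genotype, with its standard error (SE). The 3 other markers followed Ttr. Folr1, the folate receptor that loads folate into cerebrospinal fluid, stood at 5.99, 5.97, 4.93 and 3.70 in the 4 libraries. In the other 8 its lowest, median and highest levels were 0.89, 1.30 and 1.95. The 2 sets did not overlap, and the difference was 3.77 ± 0.37 (SE).

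Kcnj13, an inward rectifier potassium channel of the apical membrane, stood at 5.80, 5.44, 4.39 and 3.22, against 0.43, 0.96 and 1.97 in the other 8. The difference was 3.65 ± 0.37 (SE). Clic6, a member of the chloride intracellular channel family, stood at 4.94, 4.85, 4.12 and 2.77, against 0.34, 0.76 and 1.26, with a difference of 3.43 ± 0.32 (SE). Each marker therefore had the same order among the 4 libraries as Ttr had, and the labelled choroid plexus signal was present in all 3 of them. Folr1 overlaps Anapc15 and Kcnj13 overlaps Gigyf2 on the other strand, and Clic6 overlaps 2410124H12Rik on its own strand, so some reads may be shared. The split was made on Ttr alone, and the 3 other genes were named beforehand as markers of the same tissue. All are therefore described by their values, and nothing is supported with a p of theirs. In bulk tissue, fewer cells of a type and less RNA per cell cannot be told apart.

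**Figure D1:**
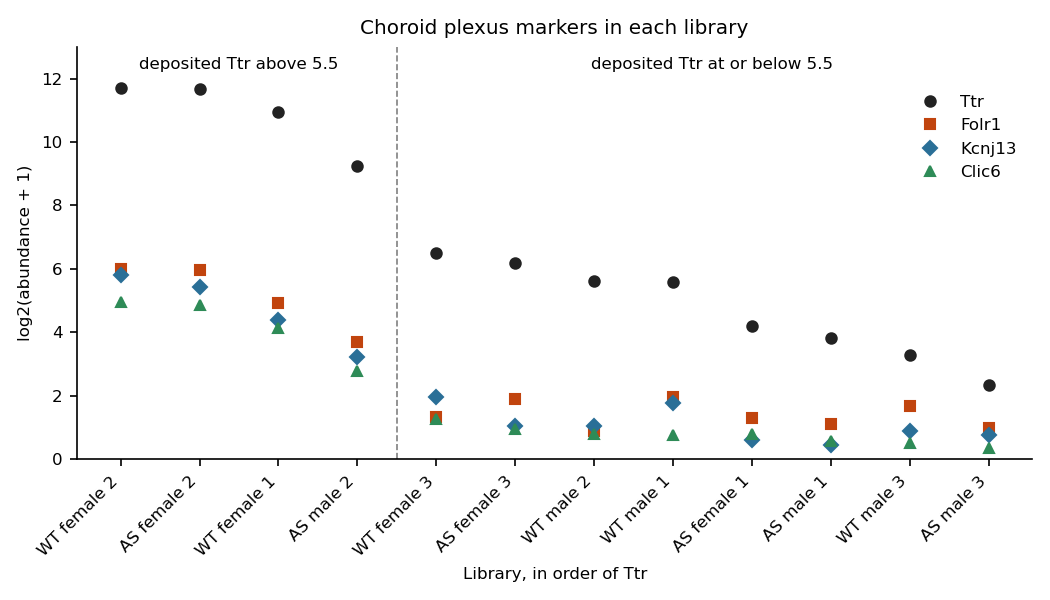
Levels of Ttr, Folr1, Kcnj13 and Clic6 (vertical axis, log2 of abundance plus 1) in each of the 12 libraries, which are ordered by Ttr on the horizontal axis and parted by a dashed line at the threshold. Each point is 1 library. Folr1 stays between 3.70 and 5.99 left of the line and between 0.89 and 1.95 right of it, while Ttr keeps falling to the right.

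By group, Folr1 averaged 4.08 ± 2.45 in WT females, 3.05 ± 2.55 in AS females, 1.92 ± 1.54 in AS males and 1.50 ± 0.55 in WT males (SD, n = 3 each). Otx2, the homeodomain factor that choroid plexus cells need, averaged 2.72 ± 1.71 in WT females, 1.76 ± 1.76 in AS females, 1.11 ± 0.99 in AS males and 0.60 ± 0.16 in WT males (SD, n = 3 each). The SD of Folr1 was smallest in WT males, the group whose 3 libraries all lie at or below the threshold, and the other 3 groups hold libraries from both sides of it.

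Promoter sequence is shown for choroid plexus genes on which the pattern turns and for 1 gene of the motile cilium that is described further on. Each run is the 250 bases before a RefSeq transcription start on GRCm38.p6, read 5′ to 3′ on the gene's strand. Capitals mark 2 short motifs searched on both strands, the OTX core TAATCC and the RFX half-site GTTGCC, which do not overlap each other in these runs. Otx2 belongs to the OTX family, and RFX factors act on genes of motile cilia. Kcnj13 (chr1:87394730-87394979, minus strand) held neither motif. Of 4 listed starts of Otx2, start 3 (chr14:48665110-48665359, minus strand) held 1 OTX core, whose outer end lay 211 bases before the start. Start 1 held 1 RFX half-site and start 2 held 2, without an OTX core in either. The runs of these 2 starts overlap and share 1 half-site. Start 4 held neither motif. Mfrp (chr9:44101520-44101769, plus strand), a frizzled-related membrane protein, held 1 OTX core, 134 bases before the start. Spag16 (chr1:69826720-69826969, plus strand), a protein of the axoneme's central apparatus, held 2 RFX half-sites.
Kcnj13: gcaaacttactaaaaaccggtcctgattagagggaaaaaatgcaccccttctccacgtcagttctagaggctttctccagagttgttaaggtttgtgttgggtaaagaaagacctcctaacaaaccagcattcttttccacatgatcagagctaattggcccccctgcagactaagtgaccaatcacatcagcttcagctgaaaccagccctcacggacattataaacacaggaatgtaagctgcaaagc
Otx2: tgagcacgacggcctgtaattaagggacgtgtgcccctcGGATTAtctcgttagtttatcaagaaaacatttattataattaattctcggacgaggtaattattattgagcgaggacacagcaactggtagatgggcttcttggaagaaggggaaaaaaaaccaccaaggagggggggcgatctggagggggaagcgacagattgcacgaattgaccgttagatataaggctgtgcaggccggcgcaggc
Mfrp: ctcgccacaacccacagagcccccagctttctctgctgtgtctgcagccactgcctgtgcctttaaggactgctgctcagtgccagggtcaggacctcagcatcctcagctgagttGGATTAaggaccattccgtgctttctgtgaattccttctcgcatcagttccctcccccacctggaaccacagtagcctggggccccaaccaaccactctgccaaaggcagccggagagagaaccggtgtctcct
Spag16: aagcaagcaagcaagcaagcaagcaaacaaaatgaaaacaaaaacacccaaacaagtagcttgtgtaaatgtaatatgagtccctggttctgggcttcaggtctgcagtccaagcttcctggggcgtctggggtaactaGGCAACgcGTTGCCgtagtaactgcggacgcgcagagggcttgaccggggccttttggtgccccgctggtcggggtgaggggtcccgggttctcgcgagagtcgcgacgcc

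Of 42 choroid plexus list genes with an entry, 5 held the OTX core (11.9%), against 7.21% of the 27025 genes in the promoter table. The RFX half-site was in 6 of the 42 (14.3%) and in 11.8% of all genes. In a list of motile cilium genes that are not on the choroid plexus list it was in 9 of 31 (29.0%). A match is a description of letters in this window, not a binding site. Mfrp and Spag16 were picked for display after their values and matches were seen. For Otx2 only the start with an OTX core is printed. Folr1 and Clic6 had no entry in that table.

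A list of 65 choroid plexus epithelium genes was drawn up with earlier results of these data known. The table held 54 of them. Apart from Ttr and 3 genes on the X chromosome, 50 were tested and none was lost to the filter on low values. The model put all 50 above 0, with differences from 0.10 to 3.77 and a median of 1.66, while the median over all 13134 genes tested was -0.02. In 34 of the 50 the 2 sets of libraries did not overlap, against 1.36% of all genes tested in that direction. In 35 of the 50 they did not overlap without WT female replicate 1, and the median was then 1.73. Nothing further is read from these counts, since the split was made to find such genes.

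**Figure D2:**
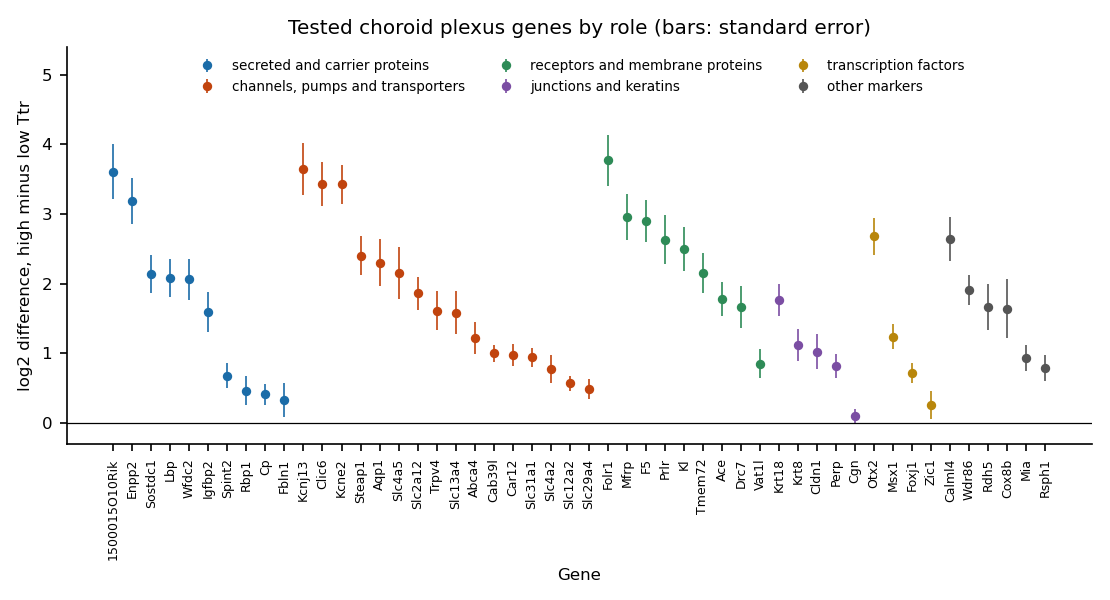
Difference in level between the 4 libraries above the Ttr threshold and the other 8 (vertical axis, log2) for each of the 50 tested choroid plexus genes (horizontal axis), coloured by role. Points are model estimates and bars are standard errors. Every group of genes has members above 1, and the values run from 0.10 for Cgn to 3.77 for Folr1.

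Secreted and carrier proteins made up 10 of the 50, and 5 had sets that did not overlap. Their differences ran from 0.33 to 3.61 with a median of 1.82. At the top stood 1500015O10Rik, also known as Ecrg4, which encodes a secreted augurin precursor, at 3.61 ± 0.39 (SE). Enpp2, which encodes autotaxin, the enzyme that makes lysophosphatidic acid, reached levels of 9.90, 9.78, 8.79 and 7.73 in the 4 libraries. In the other 8 libraries Enpp2 ran from 5.53 through a median of 5.78 to 6.27. Its difference was 3.19 ± 0.33 (SE). Enpp2 therefore had a clear level in every library, unlike Kcnj13 or Clic6, whose levels in most of the other 8 lay near 1 or below. Sostdc1, a secreted antagonist of BMP and WNT ligands, differed by 2.14 ± 0.27 (SE).

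Channels, pumps and transporters were the largest role, with 16 genes, of which 14 had sets that did not overlap. Differences ran from 0.49 to 3.65 with a median of 1.60. Kcne2, a potassium channel subunit, stood at 4.81, 4.34, 3.83 and 2.65 in the 4, and at 0.29, 0.51 and 0.65 as lowest, median and highest of the other 8. No other choroid plexus gene tested had a larger ratio of mean abundances, 40.8, or 23.1 with base 2. Steap1, a metalloreductase-family protein, differed by 2.40 ± 0.28 and Aqp1, the water channel, by 2.30 ± 0.34 (SE). At the low end, Slc4a2, an anion exchanger, had 7 of the 8 other libraries at or above AS male replicate 2, with a difference of 0.77 ± 0.20 (SE).

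Receptors and membrane proteins, a group that also holds the plasma protein F5 and the cilium protein Drc7, had the highest median difference of the roles, 2.50 over 9 genes, and 8 had sets that did not overlap. Behind Folr1 came Mfrp at 2.96 ± 0.33 and F5 at 2.90 ± 0.30 (SE). F5 is coagulation factor V. Mfrp overlaps the gene C1qtnf5 on the same strand, so reads of the 2 may be shared. Prlr, the prolactin receptor, had another order than Ttr. Its levels were 4.29, 4.16, 4.38 and 1.85 in the 4 libraries, highest in WT female replicate 1, against 0.88 to 1.29 in the other 8. Prlr overlaps Gm21973 and F5 overlaps Gm16588 on the same strand, so some of their reads may be shared too.

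Of 5 genes for junctions and keratins, 2 had sets that did not overlap. Krt18 and Krt8, the keratin pair of simple epithelia, differed by 1.77 ± 0.23 and 1.12 ± 0.23 (SE). Cldn1, a tight junction claudin, differed by 1.02 ± 0.25 (SE), and its sets overlapped. Cgn, which encodes cingulin, was the smallest of the 50 at 0.10 ± 0.10 (SE). Cldn2, the claudin of leaky epithelia, is X-linked and outside the model. Its levels of 4.29, 3.90, 3.39 and 1.61 in the 4 libraries lay above the highest of the other 8, which was 0.99.

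Among 4 transcription factors, Otx2 stood at 4.16, 3.78, 3.17 and 2.23 in the 4 libraries and at 0.32, 0.69 and 0.91 in the other 8, a difference of 2.68 ± 0.27 (SE). Msx1, a homeobox factor of the dorsal midline, differed by 1.24 ± 0.18, and Foxj1, the regulator of motile cilium genes, by 0.72 ± 0.14 (SE). Zic1 overlapped, at 0.26 ± 0.20 (SE). Of 6 other markers, Calml4 differed by 2.64 ± 0.32, Wdr86 by 1.91 ± 0.22 and Rdh5, a retinol dehydrogenase, by 1.67 ± 0.33 (SE). The level of Rdh5 overlapped with 1 of the other 8 libraries. The gene Rdh5 overlaps Bloc1s1 and Otx2 overlaps Gm49154 on the same strand, so some reads may be shared.

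Htr2c encodes the serotonin 2C receptor, which neurons also express, and is X-linked and outside the model. Its levels were 4.98, 5.17, 4.85 and 4.80 in the 4 libraries and 3.77, 4.66 and 4.82 as lowest, median and highest of the other 8, so the sets overlapped.

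The 4 libraries were ordered alike by most of these genes. AS male replicate 2 was the lowest of the 4 for 44 of the 50 genes, and the full order of the 4 matched that of Ttr for 33. WT female replicate 2 was highest for 35 genes and AS female replicate 2 for 13. To put sizes on this, the median abundance of the other 8 libraries was subtracted from each of the 4, and the increment was expressed as a percentage of that in WT female replicate 2. For AS female replicate 2 the increment of Ttr was 96.4%, and the median of the 34 genes with sets that did not overlap was 90.3% (quartiles 79.5% and 94.9%). In WT female replicate 1 Ttr stood at 58.1% and the median at 45.8% (quartiles 41.4% and 52.9%). In AS male replicate 2 Ttr stood at 17.3% and the median at 17.1% (upper quartile 22.4%, range 7.1% to 58.6%). The 34 genes were kept because each of the 4 libraries lay above all the other 8, so a positive increment was fixed in advance. The 16 tested genes whose sets overlapped are left out, which bears most on AS male replicate 2, usually the lowest of the 4.

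A few genes left this common scale. Prlr reached 106.5% in WT female replicate 1, but 8.9% in AS male replicate 2. Slc13a4, a sulfate transporter, reached 145.2% in AS female replicate 2 and 58.6% in AS male replicate 2. Among the other 8 libraries Slc13a4 was highest in WT male replicate 1 at 2.98 and WT female replicate 3 at 2.67. Those 2 also had the highest means of the 8 for the meningeal stroma list described further on, and the relation was not tested. Msx1 reached 138.2% and Lbp, a lipopolysaccharide-binding protein, 135.9% in AS female replicate 2. Foxj1 was the lowest there at 56.6%. With 1 library for each percentage, these values have no replicate check. With base 2 the increment of Ttr would be 97.4%, 67.7% and 27.7% in the 3 libraries, and the median 92.3%, 53.8% and 23.5%.

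**Figure D3:**
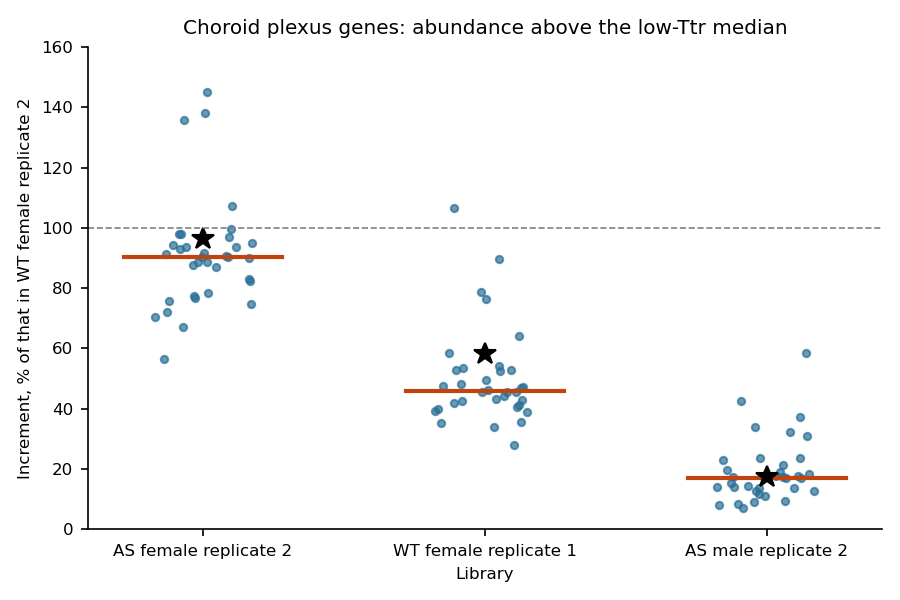
Increment in abundance over the median of the 8 libraries at or below the threshold, as a percentage of that in WT female replicate 2 (vertical axis), for 34 choroid plexus genes in the other 3 libraries above the threshold (horizontal axis). Points are genes, spread sideways for view, bars are medians and stars are Ttr. Only genes with sets that did not overlap are shown. The medians are 90.3%, 45.8% and 17.1%, and the star of Ttr lies above the median by the most in WT female replicate 1.

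Over all 12 libraries, the genes whose levels were most like those of Ttr were Clic6 (Pearson r = 0.962), Kcnj13 (0.956), Enpp2 (0.954), Otx2 (0.946), F5 (0.943), Kcne2 (0.942), Folr1 (0.937), 1110017D15Rik (0.935), Mfrp (0.933) and Calml4 (0.932). Only 1110017D15Rik among these 10 is not on the choroid plexus list. These are descriptions over libraries that fall into 2 sets.

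Within the 8 libraries at or below the threshold, Pearson's r with Ttr was 0.902 for Clic6, 0.694 for Kcnj13 and 0.364 for Folr1, and Spearman's rho was 0.929, 0.714 and 0.286. Without AS male replicate 3 and WT male replicate 3, the libraries farthest from the median of Ttr, r was 0.793, 0.811 and 0.392. Clic6 thus had the highest r of the 3 over all 8 libraries and Kcnj13 over the 6 left. Ttr alone chose the libraries and these genes were named as markers of the same tissue, so the coefficients are descriptions with no test.

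Calls were then counted over all genes tested, on the choroid plexus list or off it. Across 13134 genes, limma called 124 higher (0.944% of genes tested) and 28 lower (0.213%) in the 4 libraries at an adjusted p under 0.05. Of the 124, 38 are choroid plexus list genes, the markers included, from which nothing is read, and 86 are not. The list need not hold every gene of the tissue, so the 86 may include choroid plexus genes, which was not tested. A p of theirs has the same limit, as the split was made on Ttr. Of these 86, 65 had sets that did not overlap and 22 differed by more than 1 on the log2 scale. The 28 lower genes had a median difference of -0.29, and 23 had sets that did not overlap. A call and the lack of overlap come from the same libraries, so the 65 and the 23 add no support to the calls. Over all 13134 genes the sets did not overlap for 178 higher (1.36%) and 165 lower (1.26%). A p here ranks a gene's association with a split made on a measured value and tests no treatment. The calls depended on single libraries. Without WT female replicate 1, 99 genes were called higher and 16 lower, and 93 and 5 of them were among the first calls.

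Calls higher fell to 36 without WT female replicate 2, 42 without AS female replicate 2, 77 without AS male replicate 3, and 82 without AS male replicate 1 and also without WT male replicate 3. Calls lower fell to 4 without WT female replicate 2, 6 without AS female replicate 2, 11 without AS male replicate 1, 12 without AS male replicate 3, 13 without WT male replicate 3, 16 without AS male replicate 2 and 17 without AS female replicate 1, and rose to 59 without WT female replicate 3. With each library scaled to the same median over neuron genes, which moves the median difference of all genes from -0.023 to 0.043, the calls were 238 higher and 10 lower. The share of calls that were higher was then 96.0%, against 81.6% as deposited. With sex as a further covariate they were 66 and 7. That fit, and each fit of females alone, counts WT female replicate 1 as female against its Xist level.

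Of the genes outside the choroid plexus list, Col8a1, a short-chain collagen of basement membranes, had the smallest p. It stood at 3.11, 2.64, 2.57 and 1.45 in the 4 libraries. In the other 8 libraries its lowest, median and highest levels were 0.39, 0.55 and 0.97. It rose by 1.84 ± 0.21 (SE; limma adjusted p = 0.00107). Trpm3, a cation channel, stood at 5.37, 5.31, 4.86 and 4.29 against 3.43, 3.65 and 3.73, and rose by 1.35 ± 0.16 (SE; limma adjusted p = 0.00149). In Trpm3, as in Col8a1, the 4 libraries kept the order of Ttr, and both calls held in each alternative that could test them.

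Sulf1, which trims sulfate from heparan sulfate chains, rose by 1.70 ± 0.22 (SE; limma adjusted p = 0.00271). Pon3, a paraoxonase, rose by 1.39, Sema3b, a secreted semaphorin, by 1.19, Cgnl1, a paralog of cingulin at cell junctions, by 1.18, and Steap2, a metalloreductase, by 1.08. Gpx8, a peroxidase of the endoplasmic reticulum, rose by 1.05 and Cd59a, an inhibitor of the complement attack complex, by 1.04. Frmpd1os rose by 1.20, but it lies antisense to Frmpd1, and strand use in the counting is not given in the sources used here, so the reads of the 2 cannot be told apart. These genes had limma adjusted p between 0.00271 and 0.0119, and they were picked among the called genes for sets that did not overlap.

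Other called genes had smaller differences. Ctsc, the lysosomal protease cathepsin C, rose by 0.61, Tmem237, a protein of the ciliary transition zone, by 0.46, Dnajc3, a co-chaperone of the endoplasmic reticulum, by 0.41, Itgb8, an integrin, by 0.36 and Cd164, a sialomucin, by 0.31, with limma adjusted p between 0.00214 and 0.011. Itgb8 stood at 3.59, 3.56, 3.41 and 3.62 in the 4 libraries and at 3.08, 3.19 and 3.24 in the others. AS male replicate 2 was the highest of the 4 for Itgb8, where it was the lowest for 44 of the 50 choroid plexus genes. Chosen after its values were seen, A2m, which encodes alpha-2-macroglobulin, rose by 1.91 ± 0.31 (SE; limma adjusted p = 0.0122) with sets that overlapped. In AS male replicate 2 it stood at 1.36, below 1.55 in WT female replicate 3.

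Genes called lower changed less. Asphd1, an aspartate beta-hydroxylase domain protein, stood at 3.72, 3.68, 3.60 and 3.77 in the 4 libraries and at 4.04, 4.21 and 4.43 as lowest, median and highest in the other 8. It fell by 0.54 on the log2 scale (SE 0.08; limma adjusted p = 0.00538). Kcnip3, a calcium-binding modulator of potassium channels, fell by 0.52 (SE 0.09; limma adjusted p = 0.0136), with levels of 4.60, 4.87, 4.53 and 4.66 against 4.94, 5.20 and 5.37. Polr1b and Polr2j, subunits of RNA polymerases I and II, fell by 0.39 and 0.22, and Acd, a telomere shelterin protein, fell by 0.40. Pcgf2, a Polycomb protein, and Gpsm1, a regulator of G protein signalling, each fell by 0.36. Arhgap33, a GTPase-activating protein, fell by 0.29, Uqcc2, an assembly factor of respiratory complex III, by 0.24, and Rnft2 by 0.22. These 10 were picked among the called genes for sets that did not overlap, and each had a limma adjusted p of 0.0325 or less. Many of these calls were lost in the 22 alternatives: that of Gpsm1 in 11, those of Rnft2 and Uqcc2 in 10 each, and those of Pcgf2 in 9, Arhgap33 in 8 and Polr2j in 7. Acd lost its call in 3, Kcnip3 in 2, and Asphd1 and Polr1b in 1 each. With scaling to neuron genes Polr2j, Arhgap33, Uqcc2, Rnft2 and Gpsm1 were no longer called. Without WT female replicate 1 those 5, Pcgf2 and Acd were not called. In the fit of females alone 0 genes were called lower by limma, and 937 genes had an unadjusted p under 0.05 in either direction. Asphd1 overlaps Kctd13 on the other strand, Acd overlaps Carmil2, Polr2j overlaps Lrwd1 and Gpsm1 overlaps Dnlz, so some reads of each may belong to the neighbour.

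Lists of genes for other cell types and processes were read next, each without its choroid plexus members. Their medians stand beside -0.02 for all genes, and their calls beside 0.944% higher and 0.213% lower. Their counts at an unadjusted p under 0.05 stand beside 2187 of all 13134 genes tested, far more than 5%. Motile cilia are shared by ependyma and, in part, by choroid plexus epithelium. Of 35 motile cilium genes 7 passed as higher and 0 as lower, with a median difference of 0.32. Spag16 stood at 1.70, 1.58, 1.34 and 1.35 in the 4 libraries, against 0.42, 0.71 and 0.93 in the other 8. It rose by 0.80 ± 0.13 (SE; limma adjusted p = 0.0135). Pifo, a ciliary signalling protein, rose by 1.10 ± 0.19 (limma adjusted p = 0.0157) and Cfap65, a flagellar protein, by 0.61 ± 0.10 (SE; limma adjusted p = 0.0141). Also past the threshold were Mlf1, Cfap126, Cfap52 and Cfap44. The count was 6 without WT female replicate 1, 4 without AS male replicate 3, 3 with sex as a covariate and 1 among genes with a mean abundance of 5 or more. It was 0 without AS female replicate 2, without WT female replicate 2 and in females alone. Spag16, Pifo and Cfap65 had mean abundances below 5 in both sets of libraries, so the filter at 5 left them untested.

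Ependymal cells are the ciliated lining of the ventricles. Of 10 ependyma genes outside the choroid plexus list 0 passed in limma, 3 had an unadjusted p under 0.05, 8 had a positive difference, and the median was 0.25, or -0.07 in females alone. The difference between this list and the motile cilium list was not tested. Tmem212 stood at 2.10, 1.83, 2.72 and 2.87 in the 4 libraries and between 1.29 and 2.53 in the other 8, and Ccdc153 at 2.30, 2.04, 2.19 and 2.53 against 0.89 to 2.55. For both genes the 2 libraries with the most Ttr were not the highest. The ependyma list mean ran from 2.75 to 3.02 in the 4 and from 2.15 to 2.99 in the other 8.

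**Figure D4:**
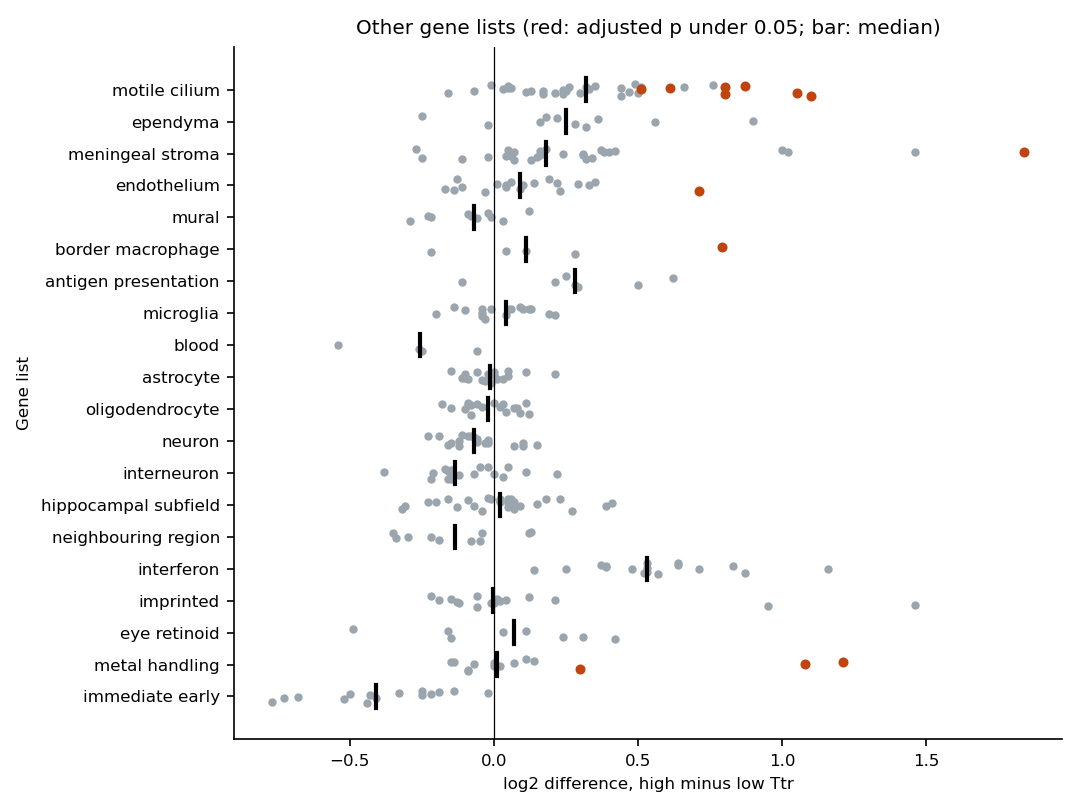
Difference in level between the 4 libraries above the Ttr threshold and the other 8 (horizontal axis, log2) for the tested members of 20 gene lists (vertical axis), without choroid plexus list genes. Each point is a gene, red where limma's adjusted p is under 0.05, and bars are list medians. The motile cilium list has 7 red points, while the interferon list has a median of 0.53 and the immediate early list one of -0.41 with no red point in either.

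The stroma and vessels of the plexus could bring other cells. Of 27 meningeal stroma genes 1 passed, Col8a1, and the median was 0.18. The list mean was 2.37, 3.05, 2.58 and 2.87 in the 4 libraries, and it ran from 1.88 to 3.09 in the other 8, where WT male replicate 1 and WT female replicate 3 were highest. The meningeal list thus stood as high in those 2 libraries, with little Ttr, as in any of the 4. Of 19 endothelium genes 1 passed, Slco1a4, an organic anion transporter, at 0.71 ± 0.15 (SE; limma adjusted p = 0.0496), and the median was 0.09. That call was lost in 18 of the 22 alternatives. Of 10 mural cell genes 0 passed and 0 had an unadjusted p under 0.05 in limma, with a median of -0.07 and Pdgfrb at 0.03 ± 0.09 (SE).

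Of 5 border macrophage genes 1 passed, Dab2, an endocytic adaptor, at 0.79 ± 0.17 (SE; limma adjusted p = 0.045), and the call was lost in 13 of 21 alternatives. Of 7 antigen presentation genes 0 passed and 1 had an unadjusted p under 0.05 in limma, with a median of 0.28. Cd74, the invariant chain, stood at 2.35, 2.62, 1.83 and 3.25 in the 4 libraries, and the highest of the other 8, at 3.79, was above them all. Of 17 microglia genes 0 passed and 1 had an unadjusted p under 0.05 in limma, with a median of 0.04. Of 4 haemoglobin and blood genes 0 passed and 0 had an unadjusted p under 0.05 in limma, with a median of -0.25, which was 0.02 without WT female replicate 2 and 0.16 in females alone. Hba-a1 and Hba-a2 are near-identical, and their reads may be split between them.

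Markers of the labelled tissue were present in all 12 libraries, and their list means overlapped between the 2 sets. The neuron list mean ran from 7.48 to 7.58 in the 4 libraries and from 7.46 to 7.68 in the other 8, and the list of hippocampal subfield genes ran from 3.96 to 3.99 and from 3.86 to 4.00. Snap25, a synaptic SNARE protein, stood at 10.08, 10.01, 10.05 and 10.00 in the 4 and between 10.02 and 10.28 in the others. Its difference was -0.12 ± 0.04 (SE). Medians were -0.07 over 19 neuron genes, -0.13 over 18 interneuron genes, 0.02 over 27 subfield genes and -0.13 over 10 genes of neighbouring regions, with 0 of each passing in limma. Unadjusted p was under 0.05 for 5, 2, 2 and 4 of them. The difference was negative for 15, 13, 11 and 8 of them in the same order. For 18 astrocyte and 18 oligodendrocyte genes both medians were -0.02, with 0 passing in limma and 2 and 0 with an unadjusted p under 0.05. Scaled to neuron genes, both medians were 0.05.

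Metal handling genes outside the choroid plexus list had a median of 0.01 over 14, and 3 passed as higher. Besides Steap2 these were Slc39a4, a zinc importer, at 1.21 ± 0.22 (SE; limma adjusted p = 0.0225) and Slc39a12, also a zinc importer, at 0.30 ± 0.06 (SE; limma adjusted p = 0.0408). The call of Slc39a12 was lost in 14 of 22 alternatives. Of 8 genes for eye pigment and retinoid handling 0 passed and 4 had an unadjusted p under 0.05 in limma, with a median of 0.07.

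Of 16 imprinted genes, which are expressed from 1 parental copy, 0 passed and 3 had an unadjusted p under 0.05 in limma, with a median of 0.00. The largest values were those of Igf2 and Cdkn1c. Igf2, a growth factor, stood at 6.11, 6.37, 5.48 and 4.90 in the 4 libraries and at 3.47, 4.07 and 5.60 as lowest, median and highest in the other 8, a difference of 1.46 ± 0.35 (SE; limma adjusted p = 0.0725). Cdkn1c, a cyclin-dependent kinase inhibitor, stood at 2.79, 2.62, 2.21 and 2.14 against 1.10, 1.29 and 2.04, without overlap, a difference of 0.95 ± 0.21 (SE; limma adjusted p = 0.0541). Both passed with scaling to neuron genes and without WT male replicate 1. Cdkn1c also passed with quantile normalization applied again, without AS male replicate 1 and without WT female replicate 3.

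Interferon-induced genes were led by 1 library. All 17 tested had a positive difference, with a median of 0.53, but 0 passed and 9 had an unadjusted p under 0.05 in limma. Their mean level was 4.19 in AS female replicate 2, 3.03, 2.83 and 3.00 in WT female replicate 2, WT female replicate 1 and AS male replicate 2, and 2.43 to 3.05 in the other 8. Ifit3, an antiviral protein, stood at 5.18 in AS female replicate 2 and between 3.69 and 4.27 in the other 3, against 3.20 to 4.18. Without AS female replicate 2 the median of the list was 0.20.

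Immediate early genes, which neurons switch on within minutes of activity, ran the other way. All 15 had a negative difference, with a median of -0.41, while 0 passed and 6 had an unadjusted p under 0.05 in limma. Fos stood at 3.33, 3.72, 2.66 and 2.04 in the 4 libraries and at 2.53, 3.81 and 4.41 in the other 8, a difference of -0.77 ± 0.36 (SE; limma adjusted p = 0.304). The sets overlapped for every member of the list. AS male replicate 2 had the lowest list mean, 2.67. Without AS male replicate 2 the list median was -0.21, and in females alone it was -0.06.

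**Figure D5:**
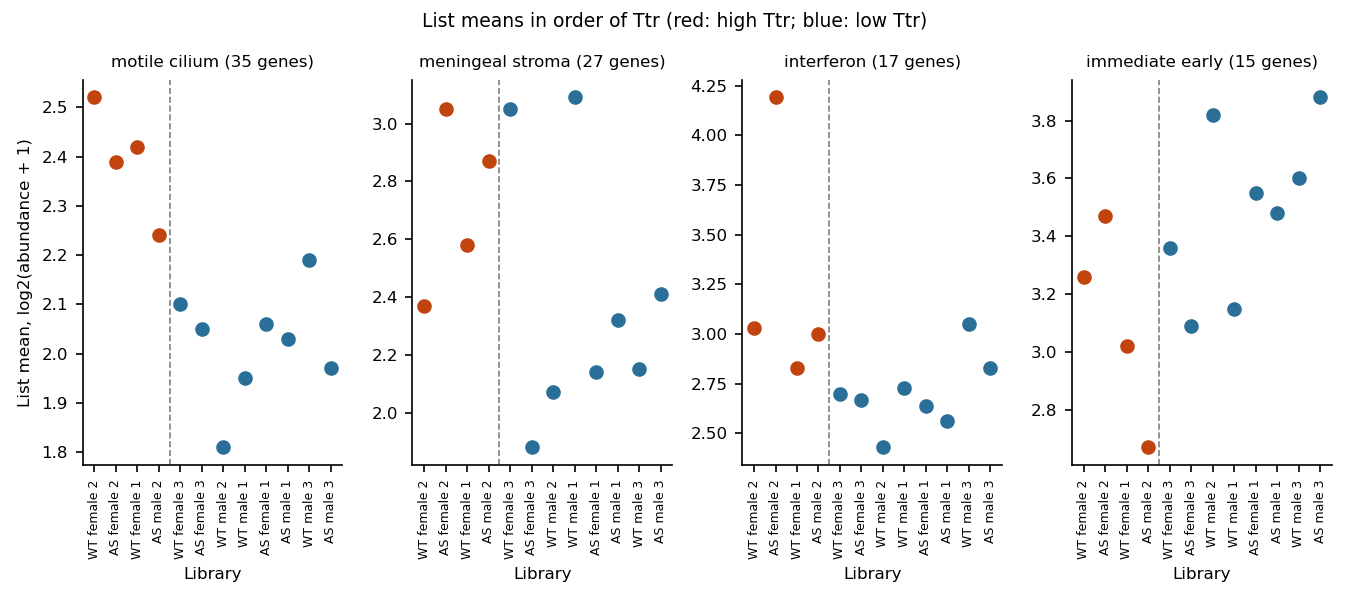
Mean level of 4 gene lists (vertical axes, log2 of abundance plus 1, each with its own range that does not start at 0) in the 12 libraries, ordered by Ttr on the horizontal axes and parted by a dashed line at the threshold. Each point is 1 library, red above the threshold and blue at or below it. The motile cilium means of the 4 red libraries, 2.24 to 2.52, lie above the blue ones, 1.81 to 2.19, while the interferon panel shows AS female replicate 2 alone at 4.19.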

How the data were processed

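Polyadenylated RNA of 12 mice was sequenced. Per the submitters' processing notes the tools were Trimmomatic, Bowtie2 and RSEM, on GRCm38 (mm10); versions, the counting strand and the normalization are not given in the sources used here. The table the authors deposited holds 13951 genes as values without zeros, read here as the natural log of an RSEM abundance plus 1, which is per transcript length. Base 2 is possible, and each log2 difference would then be 0.693 times as large; back-transformed shares and ratios change otherwise and are given for both. No read counts are given, so the depth of each library and its counting error are unknown. Of the identifiers, 216 had no annotation.

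Values were divided by the natural log of 2. Autosomal genes other than Ttr with a mean abundance of at least 1 were fitted with limma 3.58.1 (R 4.3.3), with genotype as covariate, a variance trend and Benjamini-Hochberg adjustment over all 13134 genes. The code was tested on simulated data. Group shares were tested with Fisher's exact test, and correlations are given as descriptions. The rule, the gene lists and the members were chosen with earlier results of these data known. Lists covered choroid plexus epithelium, motile cilium, ependyma, meningeal stroma, endothelium, mural cells, border macrophages, antigen presentation, microglia, blood, astrocytes, oligodendrocytes, neurons, interneurons, hippocampal subfields, neighbouring regions, interferon, imprinted, eye and retinoid, metal handling and immediate early genes. Named were the 4 markers and up to 3 choroid plexus genes per role with the largest difference, up to 15 other genes higher and 10 lower with the smallest p and sets that did not overlap, predicted names left out, and up to 3 called or 2 first members of each list. Others that are named were picked after their values were seen. Promoter sequences are from RefSeq. Alternatives varied the filter, pseudocount, log base, covariates, samples, scaling, trend and each library in turn.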

Additional observations from a re-analysis of the deposited data

Results flagged for a closer look

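Of 40 list means looked at, those of 20 lists in each of the 2 sets of libraries, 4 had a library that stood apart by Dixon's criterion, which chance meets in about 1 group in 20. Above the Ttr threshold, the interferon list mean was 4.19 in AS female replicate 2 and 2.83 to 3.03 in the other 3 libraries. The metal handling list mean was 5.32 in AS male replicate 2 and 5.52 to 5.55 in the other 3. At or below the threshold, WT male replicate 1 stood apart for 2 lists. Its mural cell mean was 3.02 where the other 7 libraries lay between 2.59 and 2.77, and its antigen presentation mean was 3.40 where they lay between 1.83 and 2.54.

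For Prlr, the difference across the Ttr threshold was smaller in males than in females by 2.40 on the log2 scale, written as -2.40 ± 0.24 (SE; limma interaction, adjusted p = 0.0158). Only 1 male library, AS male replicate 2, lies above the threshold, so its own level and the sex cannot be told apart. That library was the lowest of the 4 for 44 of the 50 tested choroid plexus genes, so a smaller difference in males is not particular to Prlr. WT female replicate 1, whose Xist level goes against its label, counted as female in this fit and had the highest Prlr level of all, 4.38. No p or count is given for the interaction with sex, which rests on that 1 male library. The interaction with genotype was called by limma for 2 genes, both with predicted-gene names, and 861 genes had an unadjusted p under 0.05. Both interactions were chosen after seeing the data.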

How the results depend on the processing

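No called direction reversed in any alternative run. The 124 genes called higher became 51 among genes with a mean abundance of at least 5, 66 with sex as a further covariate, 20 in females only and 238 with scaling to neuron genes. The 28 called lower became 18, 7, 0 and 10 in the same order. Fewer genes were tested with the stricter filter and fewer libraries in females only, and for the other 2 the cause was not tested. Leaving out 1 library gave 36 to 156 genes higher and 4 to 59 lower. The choroid plexus median of 1.66 became 2.10 with a pseudocount of 0.1, 1.14 with base 2, and 1.36 to 2.06 with 1 library left out. The correlation of Clic6 with Ttr among the 8 libraries was 0.793 without the 2 farthest. Differences of the named choroid plexus genes under the alternatives were classed as the same in 419 cases and as moved in 29. Base 2 gave 15 of those moves, a pseudocount of 0.1 gave 12 and females only gave 2. Of the results for other named genes under the alternatives, 1187 stayed on their side of the threshold, 141 lost the call and 7 gained it. Of the other list medians, 428 stayed within the spread between libraries and 12 moved. No paired analysis was possible because the labels pair no mice, and the replicate numbers used here only name libraries. The deposited column headers also number the libraries, and the 4 above the threshold carry 1, 2, 3 and 7. What that number stands for is not stated, and its relation to the differences was not tested. Unknown depth leaves the error of low levels, such as those of Kcnj13 in the 8 libraries, without a counting limit. The counts of list members without each library were chosen after seeing the data.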
